A study of Mus musculus with 8 samples.

Results

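Oocytes secrete growth factors and small proteins of their own, and they carry the receptor KIT. The genes described here are 8 of the 54838 gene entries in the count table, chosen by name: the growth factor genes Gdf9, Bmp15, Bmp6 and Fgf8, the oocyte-secreted protein genes Oosp1, Oosp2 and Oosp3, and the receptor gene Kit. Gene-level read counts came from total RNA of mouse oocytes of strain C57BL/6, in 8 libraries of 5 to 10 oocytes each. Control oocytes (genotype wildtype) were compared with oocytes of the genotype BAF250aGKO, in which the series title names a Gdf9-cre knockout of BAF250a, the DNA-binding subunit of the BAF chromatin remodelling complex, encoded by Arid1a. Both genotypes were sampled at the germinal vesicle (GV) stage, when the oocyte is fully grown and arrested in the first meiotic prophase, and at MII, the metaphase of the second meiotic division. Each of these 4 groups had 2 libraries. Cre under the Gdf9 promoter acts in oocytes of the ovary and not in the follicle cells around them. The sources used here give neither the age of the animals nor whether the controls carried Cre or a floxed allele.

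GDF9 and BMP15 belong to the TGF-beta family and act on the granulosa and cumulus cells around the oocyte through type 1 and type 2 serine/threonine kinase receptors and SMAD proteins. BMP6 is a related ligand that uses BMP receptors, and FGF8 is a fibroblast growth factor that acts together with the oocyte's BMPs on cumulus cell metabolism. The ligands of the TGF-beta family are made as precursors and cut by proprotein convertases such as furin. OOSP1, OOSP2 and OOSP3 are small secreted proteins expressed largely in the oocyte. KIT is the receptor tyrosine kinase for KIT ligand, which granulosa cells make, and it signals through phosphatidylinositol 3-kinase and AKT during follicle growth. An oocyte at these stages makes little or no new RNA, and during maturation its stored messages are degraded or translated as their poly(A) tails are shortened or lengthened. In many stored messages the element that directs this lies close to the end of the 3' UTR, beside the polyadenylation signal.

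The ends of the 3' UTRs are shown because the largest changes below lay between stages. They were read from the transcripts of GENCODE M21 (mm10), on the strand of the gene, and each run holds at most 30 bases around the words searched. Capitals mark TTTTAT or TTTTAAT, forms of the cytoplasmic polyadenylation element, searched in the last 100 bases, and AATAAA or ATTAAA, the polyadenylation signal, searched in the last 50 bases.
Oosp3: taaccacaacctataAATAAAacaTTTTAT
Gdf9: ctgtggTTTTATgtgacggaagAATAAAct
Bmp6: agaaactataatttattgtctaTTTTATat
Bmp15: atgtattttcttaatcttaaagAATAAAtt
Oosp2: tcttattcctatacatcaatgaAATAAAgg
Kit: gttgacagttctgaagaattctAATAAAaa
Oosp3 held TTTTAT at 2 places, starting 49 and 10 bases from the end, and its polyadenylation signal started 19 bases from the end. Gdf9 held 1 TTTTAT, 39 bases from the end, beside a signal at 23 bases. In Bmp6 the word lay 79 bases from the end, with no polyadenylation signal in the last 50 bases. Bmp15, Oosp2 and Kit held the signal without the element, and in the annotated ends of Fgf8 and Oosp1 neither was found. Of 12287 tested genes with such a window, 19.8% held TTTTAT or TTTTAAT, 79.6% held the polyadenylation signal and 16.4% held both. These letters describe annotated ends, which may differ from the ends used in the oocyte.

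Promoters were available from RefSeq (GRCm38.p6) for 5 of the 8 genes: Bmp15, Bmp6, Oosp1, Oosp2 and Kit. The 250 bases before the start are printed for 3 of them, Bmp15 as one of the oocyte genes that depend on the homeobox factor NOBOX, and Oosp1 and Oosp2 because these neighbouring genes on the same strand moved in opposite directions between stages. Capitals mark E-boxes (CANNTG, which reads the same on both strands), the sites of helix-loop-helix factors such as FIGLA, and the NOBOX words TAATTG and TAATTA, with CAATTA as the reverse complement of the first.
Bmp15 (chrX:6320725-6320974, minus strand): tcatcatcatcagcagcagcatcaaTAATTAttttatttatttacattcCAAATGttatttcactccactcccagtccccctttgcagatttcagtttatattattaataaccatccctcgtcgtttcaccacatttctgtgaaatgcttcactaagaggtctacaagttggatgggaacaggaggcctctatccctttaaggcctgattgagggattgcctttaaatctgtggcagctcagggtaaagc
Oosp1 (chr19:11691052-11691301, minus strand): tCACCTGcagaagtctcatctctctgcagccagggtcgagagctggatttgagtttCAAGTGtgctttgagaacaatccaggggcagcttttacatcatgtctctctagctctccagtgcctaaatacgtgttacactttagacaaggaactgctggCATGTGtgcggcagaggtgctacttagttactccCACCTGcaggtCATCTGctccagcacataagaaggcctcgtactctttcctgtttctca
Oosp2 (chr19:11660560-11660809, minus strand): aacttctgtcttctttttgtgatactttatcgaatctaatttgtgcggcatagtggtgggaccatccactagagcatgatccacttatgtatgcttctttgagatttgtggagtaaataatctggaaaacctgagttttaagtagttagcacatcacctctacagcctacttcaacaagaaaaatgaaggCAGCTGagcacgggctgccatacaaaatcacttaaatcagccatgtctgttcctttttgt
The Bmp15 promoter held 1 E-box (CAAATG) and 1 NOBOX word (TAATTA). The Oosp1 promoter held 5 E-boxes and the Oosp2 promoter 1 (CAGCTG), and neither held a NOBOX word. The Bmp6 promoter held 2 E-boxes and the Kit promoter 0, and neither of these held a NOBOX word. Among 27025 promoters of this length, 66% held an E-box, with a median of 1, and 11.5% held a NOBOX word. A match describes the letters and is no evidence of binding.

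Reads in genes ranged from 19587421 to 33289150 per library, and 22% to 35.13% of all counted reads were not assigned to a gene. Mitochondrial reads made up 0.1052% to 0.4461% of reads at GV and 3.029% to 6.931% at MII. Arid1a, the targeted gene, had 8178 and 10928 reads at GV where the label was control against 86 and 312 where it was knockout, and 42047 and 39148 against 1109 and 576 at MII, so each library went with its label. The summed level of 10 oocyte markers, among them the zona pellucida gene Zp3, was 30503 to 42061 CPM (reads scaled to a common total over all genes) at GV and 3402 to 4428 CPM at MII. Of 15 granulosa and cumulus markers the sum was 246 to 321 CPM at GV and 398 to 521 CPM at MII, with Serpine2 (119 to 389 CPM) the highest of them. None of those 15 was at 0 in every library. Of the 14 tested, the median log2 difference of knockout against control was -1.31 at GV, against 0 for all genes. At MII it was -2.52, or -1.15 with genes at 0 reads in a group set at a bound of 3 counts, against -0.01. At GV 0 of them passed the test used below, and at MII 2 did, both lower. Of 13 blood and immune markers, 4 (Ptprc, Lyz2, Cd3e and Adgre1) were at 0 in all libraries, and the sum was 1.07 to 16.1 CPM. No step tested how far other cells contributed to the results below.

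All 8 genes were detected in every library and passed the filter on low counts. Levels of single genes are given below as CPM scaled by the trimmed mean of M values (TMM), and as CPM per kilobase of merged exon where genes are compared with each other, with the annotated exons taken to be those used. The 8 genes together held 1.858% to 2.348% of all reads in genes. By mean CPM per kilobase, Gdf9 was the highest of the 15572 tested genes in control GV oocytes (rank 1), and it ranked 12 in control MII, and 3 and 8 in knockout oocytes at GV and MII. Oosp1 ranked 11 and 9 in control oocytes at GV and MII, and 10 and 5 in knockout oocytes. Oosp3 stood at rank 146 (control) and 95 (knockout) at GV, and at rank 20 in both MII groups. Fgf8 went the other way, from ranks 466 and 335 at GV to 4908 and 5734 at MII.

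In control GV oocytes the order by mean CPM per kilobase (± SD, n = 2) began with Gdf9 at 7401 ± 33.5 and Oosp1 at 2423 ± 995. Bmp15 (369 ± 75.2), Oosp3 (346 ± 161) and Oosp2 (313 ± 80.6) followed within each other's spread. Fgf8 stood at 121 ± 53.1, Bmp6 at 39.6 ± 22.3 and Kit at 14.5 ± 4.51 CPM per kilobase. In control MII oocytes Oosp1 came first at 5491 ± 316 and Gdf9 next at 4704 ± 701, a difference of about the spread of the libraries. Oosp3 followed at 2271 ± 129, ahead of Bmp15 (581 ± 48.2), Oosp2 (139 ± 0.781), Bmp6 (29.5 ± 2.2) and Kit (20.3 ± 3.28), and Fgf8 was last at 4.2 ± 1.88. Knockout oocytes had the same order as controls at MII, with Oosp1 at 7165 ± 761 and Gdf9 at 4356 ± 398 CPM per kilobase, and with Bmp6 (25.3 ± 4.06) and Kit (20.3 ± 6.05) within each other's spread. At GV the knockout order began with Gdf9 at 9237 ± 2074 and Oosp1 at 3720 ± 1471, followed by Oosp3 (666 ± 167), Bmp15 (513 ± 181) and Oosp2 (415 ± 14.3). Bmp15 lay within the spread of each of the other two, while Oosp3 was above Oosp2 in both of these libraries.

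**Figure D1:**
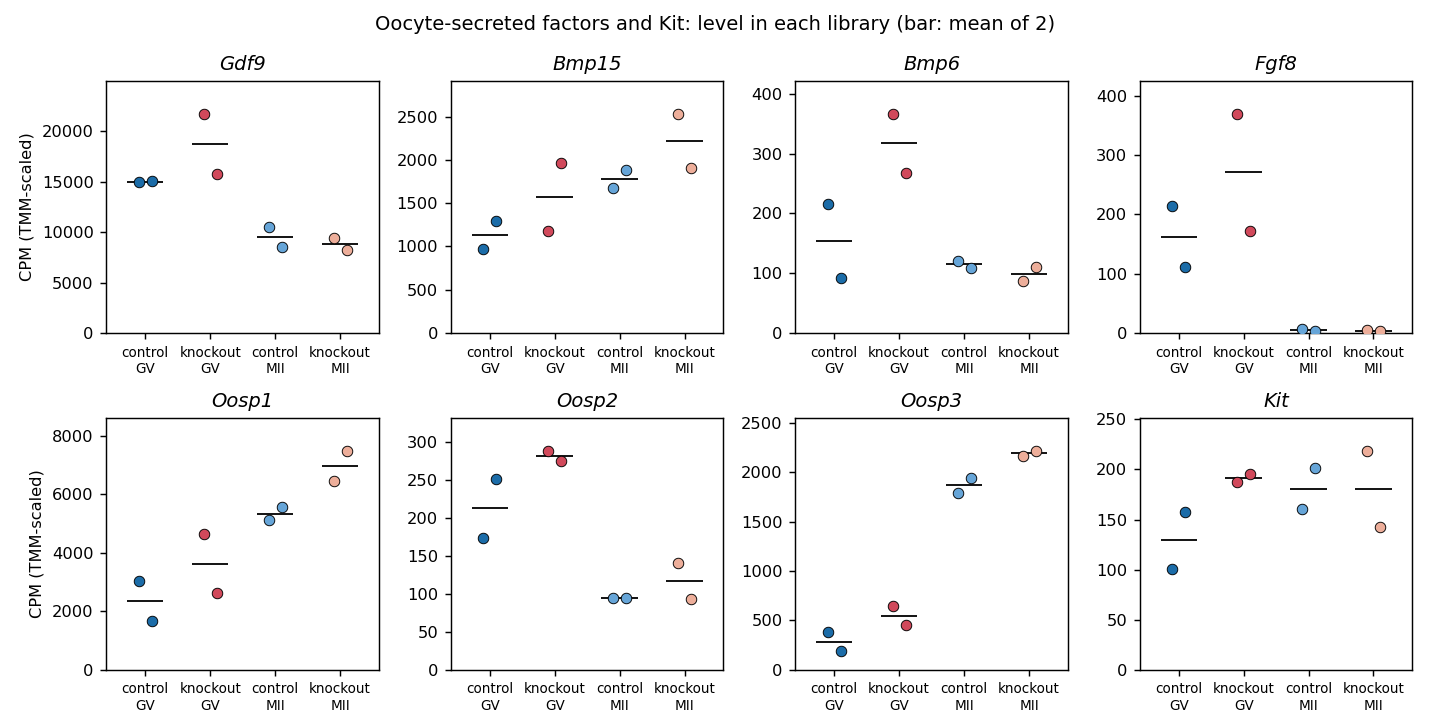
TMM-scaled CPM (vertical axes, linear, each from 0) of the 8 genes in each library, with the 4 groups on the horizontal axes; points are libraries and bars the mean of 2. Fgf8 lay between 112 and 370 CPM at GV and at 7.46 CPM or below at MII, and Oosp3 lay at 646 CPM or below at GV and at 1794 CPM or above at MII.

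Gdf9 encodes the growth factor whose promoter also drives the Cre here. In control oocytes its level was 14984 and 15081 CPM at GV and 10560 and 8547 CPM at MII, and in knockout oocytes 21739 and 15783 CPM at GV and 9419 and 8277 CPM at MII. All 4 GV libraries were above all 4 MII libraries. Between stages Gdf9 fell by 1.08 ± 0.35 (log2, SE) in knockout oocytes (edgeR quasi-likelihood test, Benjamini-Hochberg adjusted p = 0.0253). In control oocytes its log2 difference was -0.65 ± 0.34 (95% interval -1.42 to 0.11, adjusted p = 0.138 in edgeR). The test of the knockout effect at MII against that at GV gave -0.43 ± 0.49 for Gdf9 (adjusted p = 0.81 in edgeR). Knockout and control oocytes differed by a log2 of 0.32 at GV (-0.44 to 1.08) and -0.11 at MII (-0.87 to 0.65), with neither passing the test. The call in knockout oocytes was lost without the second knockout MII library (adjusted p = 0.103 in edgeR) and in a fit of those 2 groups alone (0.111), and the control difference passed with library totals as the only scaling (log2 -0.81, adjusted p = 0.01), without the first knockout GV library (-0.73, 0.0386) and in DESeq2 (-0.79, 0.0371).

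Bmp15, the X-linked partner of Gdf9, was at 967 and 1292 CPM at GV and 1673 and 1882 CPM at MII in control oocytes. In knockout oocytes Bmp15 was at 1178 and 1963 CPM at GV and 2530 and 1903 CPM at MII. The MII libraries were above both control GV libraries, while the higher knockout GV library overlapped them. The log2 difference between stages was 0.65 ± 0.34 in control (-0.1 to 1.41) and 0.5 ± 0.34 in knockout oocytes (-0.25 to 1.25), and neither passed (edgeR adjusted p = 0.132 and 0.243). Knockout against control gave 0.48 at GV (-0.27 to 1.23) and 0.32 at MII (-0.43 to 1.07), also not past the test. Because these fold changes depend on how libraries are scaled, the ratio of the ligands within a library was computed, per kilobase. Reads of Bmp15 per read of Gdf9 were 0.0428 and 0.0569 at GV and 0.105 and 0.146 at MII in control oocytes, against 0.036 and 0.0826 at GV and 0.178 and 0.153 at MII with the knockout. All 4 MII ratios were above all 4 GV ratios, and the genotypes overlapped at GV.

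Bmp6, a BMP of the oocyte and of many other tissues, was at 216 and 92.7 CPM at GV and 121 and 109 CPM at MII in control oocytes. With the knockout it was at 367 and 268 CPM at GV and 87.4 and 110 CPM at MII. The control GV libraries differed from each other by 2.33-fold, the widest gap between replicates among the 8 genes, and the MII values lay between them or just below. In knockout oocytes Bmp6 fell by 1.69 ± 0.39 (log2) between stages (adjusted p = 0.00479 in edgeR). In control oocytes the log2 difference was -0.42 ± 0.38 (-1.26 to 0.41, edgeR adjusted p = 0.375), and it was 0.3 without the first control GV library. At GV the knockout libraries were above both control libraries by a log2 of 1.04 ± 0.38 (0.2 to 1.88), with an unadjusted p of 0.0202 in edgeR and an adjusted p of 0.311. This GV difference was 0.56 without the second control GV library and 1.78 without the first. The knockout effect differed between stages by -1.27 ± 0.53 (-2.45 to -0.08), with an unadjusted p of 0.0384 in edgeR and an adjusted p of 0.405. Bmp6 shares 224 exon bases with Txndc5 on the other strand, so some of its reads may belong there if counting did not use strand.

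Fgf8 showed the largest stage difference of the 8 genes in both genotypes. Control oocytes had 4600 and 2676 reads of it at GV and 194 and 117 at MII, and knockout oocytes 6528 and 4182 at GV and 162 and 70 at MII. As levels these were 214 and 112 CPM and 370 and 173 CPM at GV, and 7.46 and 3.87 CPM and 4.83 and 2.64 CPM at MII. The stages did not overlap in either genotype. Fgf8 fell by 4.85 ± 0.56 (log2) in control oocytes, 28.8-fold (adjusted p = 9.98e-05 in edgeR), and fell by 6.17 ± 0.6 in knockout oocytes, 72.2-fold (adjusted p = 3.15e-05). The difference between these falls was -1.33 ± 0.69 (-2.86 to 0.21, edgeR adjusted p = 0.495). Knockout against control was 0.74 ± 0.48 at GV (-0.32 to 1.79) and -0.59 ± 0.5 at MII (-1.7 to 0.52), with overlapping libraries at both stages. Within libraries the ratio of Fgf8 to Gdf9, per kilobase, was 0.0112 to 0.0256 at GV and 0.00048 to 0.00106 at MII. The ratio of Fgf8 to Bmp6 was 1.86 to 3.5 at GV and 0.0696 to 0.178 at MII, so Fgf8 was above Bmp6 per kilobase in every GV library and below it in every MII library. Reads of Bmp6 per read of Gdf9 were 0.0032 to 0.00885 at GV and 0.00483 to 0.0069 at MII, and so overlapped between stages.

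The Oosp genes lie in 1 stretch of chromosome 19 (mm10): Oosp2 at 11647279 to 11660559 and Oosp1 at 11667460 to 11691150 on the minus strand, and Oosp3 at 11697055 to 11711874 on the plus strand. Together they held 0.258% to 0.433% of the reads in genes at GV and 0.701% to 0.9% at MII. Within this stretch the genes moved in opposite directions: Oosp3 and, in control oocytes, Oosp1 rose, and Oosp2 fell.

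Oosp3 was at 379 and 191 CPM at GV and 1794 and 1944 CPM at MII in control oocytes, and at 646 and 451 CPM at GV and 2167 and 2220 CPM at MII with the knockout. Every MII library was above every GV library. Oosp3 rose by 2.71 ± 0.38 (log2) in control oocytes, 6.56-fold (adjusted p = 0.000281 in edgeR), and by 2 ± 0.37 in knockout oocytes, 4-fold (adjusted p = 0.00138). At GV both knockout libraries were above both controls, by 0.94 ± 0.36 (0.15 to 1.74), with an unadjusted p of 0.0244 in edgeR and an adjusted p of 0.339. This GV difference was 0.53 without the second control GV library and 1.53 without the first. At MII the knockout difference was 0.23 (-0.56 to 1.02). The knockout effect differed between stages by -0.71 ± 0.5, which did not pass (edgeR adjusted p = 0.641). The annotated end of Oosp3 holds TTTTAT at 2 places. Gdf9 and Bmp6 also held this word, and Oosp1 did not. A link between the word and the difference between stages was not tested. A processed pseudogene, Gm19224, shares 57 exon bases with Oosp3 on the other strand.

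Oosp1 was at 3039 and 1672 CPM at GV and 5120 and 5555 CPM at MII in control oocytes, and at 4627 and 2605 CPM at GV and 6441 and 7487 CPM at MII with the knockout. Every MII library was above every GV library. Oosp1 rose by 1.18 ± 0.4 (log2) in control oocytes (adjusted p = 0.0316 in edgeR). The difference in knockout oocytes was 0.95 ± 0.4 (0.07 to 1.82) and did not pass (edgeR adjusted p = 0.0704). The control call was lost with DESeq2's size factors (1.04, edgeR adjusted p = 0.0744) and without the second control GV library (0.8, 0.187) or either control MII library (1.19 and 1.03, 0.0982 and 0.145), and the knockout difference passed with library totals as the only scaling (1.06, 0.0054), with no filter (0.9, 0.0178) and without the first knockout GV library (1.37, 0.0272). Knockout against control was 0.62 at GV (-0.26 to 1.49) and 0.38 at MII (-0.49 to 1.26).

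Oosp2 was at 174 and 251 CPM in control and 288 and 275 CPM in knockout oocytes at GV. At MII it was at 93.8 and 94.6 CPM in control and 140 and 93.5 CPM in knockout oocytes, below every GV library. Oosp2 fell by 1.17 ± 0.3 (log2) in control (adjusted p = 0.00821 in edgeR) and fell by 1.27 ± 0.3 in knockout oocytes (adjusted p = 0.00546). These calls were lost without the second control GV library (edgeR adjusted p = 0.0616) or control MII library a (0.0518), and without the second knockout MII library (0.0503). Knockout against control was 0.41 at GV (-0.24 to 1.05) and 0.31 at MII (-0.34 to 0.96). Per kilobase, the reads of Oosp1 per read of Oosp2 were 4.64 to 12.2 at GV and 32 to 55.8 at MII. The reads of Oosp3 per read of Oosp1 were 0.135 to 0.204 at GV and 0.35 to 0.414 at MII, so the proportions of all 3 genes shifted within libraries, whatever the scaling.

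Kit was at 101 and 158 CPM at GV and 160 and 202 CPM at MII in control oocytes, and at 187 and 196 CPM at GV and 219 and 143 CPM at MII with the knockout. Apart from the lower control GV library, all values lay between 143 and 219 CPM. The log2 difference between stages was 0.48 ± 0.32 in control (-0.21 to 1.18) and -0.08 ± 0.31 in knockout oocytes (-0.78 to 0.61), and neither passed (edgeR adjusted p = 0.224 and 0.847). Knockout against control was 0.57 ± 0.32 at GV (-0.13 to 1.26) and 0 ± 0.31 at MII (-0.7 to 0.69). Of 8 mast cell markers, cells that also carry KIT, the sum was 0.223 to 0.574 CPM at GV, 2.05 and 2.35 CPM in control MII and 0 in knockout MII, and Tpsb2, Tpsab1 and Mcpt4 were at 0 in every library.

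In control oocytes 2 of the 8 genes rose (Oosp1 and Oosp3), where 21.2% of all tested genes did, and 2 fell (Fgf8 and Oosp2), where 27.9% did. In knockout oocytes 1 rose (Oosp3), against 19.9%, and 4 fell (Gdf9, Bmp6, Fgf8 and Oosp2), against 29.1%. The median log2 difference of the 8 genes was 0.03 in control and -0.58 in knockout oocytes, and that of all tested genes was -0.2 and -0.33. All values are relative to the RNA of their own libraries, so a loss of total RNA per oocyte between stages cannot be told apart from a rise of the genes that remained. The kit is not given, so it is also unknown whether capture of a message depended on its poly(A) tail, which changes in maturation. Rises and falls are therefore of reads. Each group enters 1 comparison of stages and 1 of genotypes, so these comparisons share libraries.

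Between genotypes none of the 8 genes passed the test at GV, where 0.989% of all genes did, or at MII, where 5.14% did. Without adjustment, 2 of the 8 (Bmp6 and Oosp3) had an edgeR p under 0.05 at GV, where 1687 of all 15572 tested genes did. At MII 0 of the 8 did, where 3450 of all tested genes did. DESeq2 also called 0 of the 8 at either stage. At GV all 8 log2 differences were above 0, with a median of 0.59 against 0 for all genes, of which 49.6% were above 0. Both knockout libraries were above both control libraries for 5 of the 8 (Gdf9, Bmp6, Oosp2, Oosp3 and Kit), where 22.6% of all genes were. That count depended on the scaling: the TMM factor of the first knockout GV library was 0.779, the lowest of the 8, and scaled by library totals alone 2 of the 8 (Bmp6 and Oosp3) lay above, where 11.7% of all genes did, and the median was 0.29. At MII 4 differences were above 0 and 4 below, where 46.6% of all genes were above 0. The median was 0.11 against -0.01 for all genes. Both knockout libraries were above both controls for 3 of the 8 (Bmp15, Oosp1 and Oosp3), where 21.7% of all genes were. The knockout effect differed between stages for 0 of the 8, where 0.0835% of all genes passed. The estimate of this difference was below 0 for all 8, with a median of -0.5. Of all genes 44.7% were above 0, and their median was -0.14. With library totals as the only scaling the estimate was above 0 for Bmp15 (0.02) and Oosp2 (0.16). The median was then -0.25 for the 8 and 0.0709 for all genes. Genes of 1 library are not independent of each other, and the list was not tested as a whole.

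**Figure D2:**
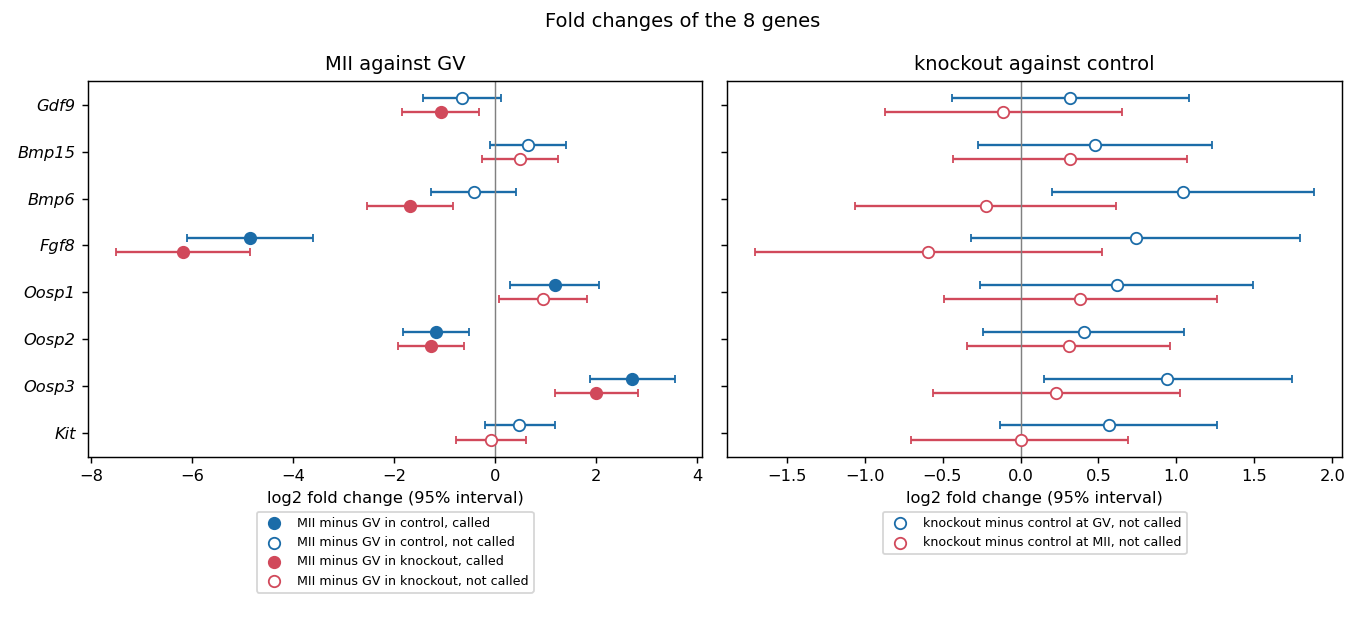
Log2 fold changes (horizontal axes) with 95% intervals for each gene (vertical axis), MII against GV on the left and knockout against control on the right; filled points passed at an adjusted p below 0.05. Fgf8 and Oosp3 passed in both genotypes on the left, with Oosp2, and no point on the right is filled.

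**Figure D3:**
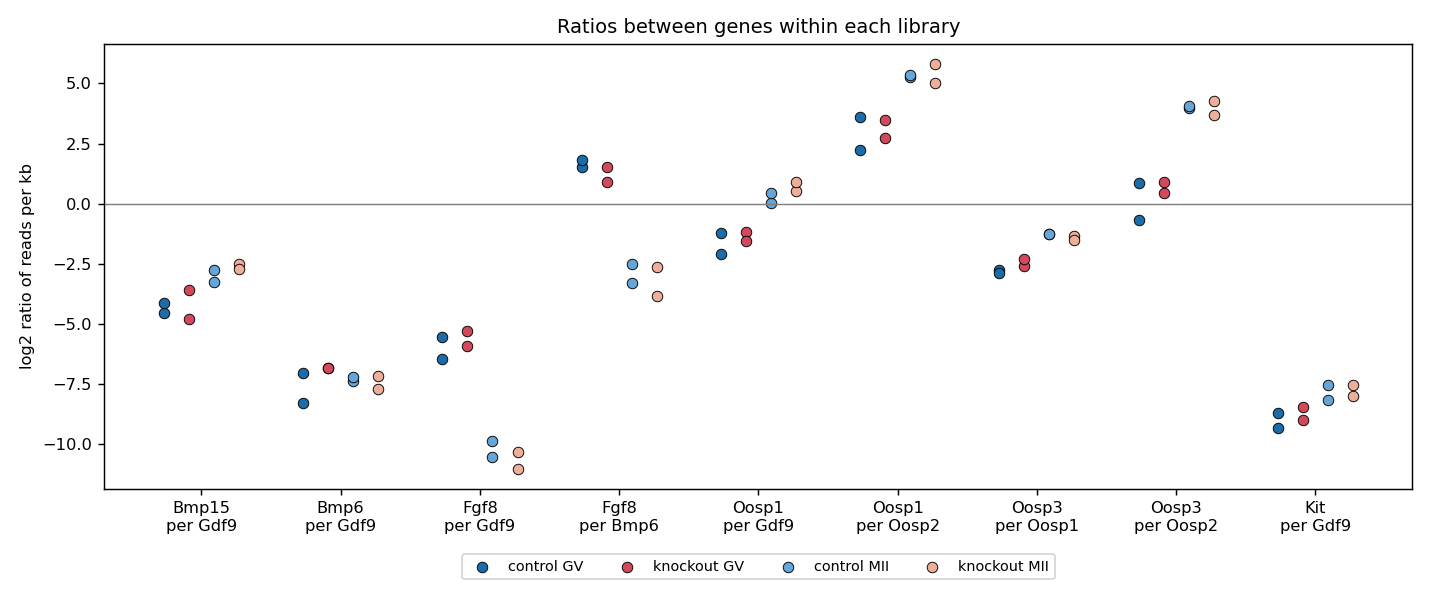
Ratios of reads per kilobase for 9 pairs of genes within each library, on a log2 scale (vertical axis), with 1 point per library coloured by group. The stages overlapped for Bmp6 per Gdf9. In the other 8 pairs the 4 MII libraries lay on 1 side of the 4 GV libraries, below them for Fgf8 per Gdf9 and Fgf8 per Bmp6 and above them for the rest.

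The 2 libraries of each GV group differed for most of the genes. Bmp15 and Kit were higher in the second library than in the first in both genotypes, and Fgf8, Oosp1, Oosp3 and Bmp6 were higher in the first. Gdf9 and Oosp2 were higher in the second library in control oocytes and in the first in knockout oocytes. These orders, and the gaps below, are by TMM-scaled CPM. As shares of reads in genes, the second knockout GV library was the higher for Gdf9 (1.69% and 1.71%), Oosp2 (0.0224% and 0.0297%) and Bmp6 (0.0285% and 0.029%). For Oosp1 the gap was 1.82-fold in control and 1.78-fold in knockout GV, and for Fgf8 it was 1.9-fold and 2.14-fold. At MII the gaps of Oosp1 and Oosp3 were 1.02-fold to 1.16-fold, while Fgf8, at its low counts, still differed by 1.93-fold and 1.83-fold.

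Among 6813 protein-coding genes with a mean of at least 10 CPM, those most like each of the 8 across libraries were found by Pearson's r of log2 CPM over the 8 libraries. These r values are a description, and since GV and MII libraries stood apart they mostly follow the step between stages, shared depth and scaling. Nearest to Gdf9 were Thyn1 and Aatf (r = 0.981 for both). Nearest to Fgf8 were Aatf and Golga3 (0.998 for both), with Aatf at 52.7 and 87.7 CPM in control and knockout GV and 5.35 and 3.59 CPM at MII. For Oosp3 they were Mllt10 and Hsf1 (0.996 for both), the latter a heat shock transcription factor, at 199 and 287 CPM at GV and 724 and 708 CPM at MII. For Oosp1 they were Auh (0.988) and Cenpn (0.986), and for Oosp2 Pphln1 (0.987) and Brip1 (0.984). Bmp15 was closest to Rspo2 (0.97), which encodes a secreted activator of WNT signalling, at 274 and 370 CPM in control and knockout GV and 410 and 501 CPM at MII, and to Arfgef3 (0.961). Bmp6 was closest to Clcc1 (0.983) and Mrpl32 (0.969). Kit had the lowest likeness of the 8, to Srsf2 (0.944) and Sf3b6 (0.922).

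The partners of these ligands and of KIT in signalling were followed in 9 lists. In the knockout at GV no gene of any of these lists passed the test, where 0.989% of all genes did. Counts between stages are to be read against all tested genes, of which 21.2% rose and 27.9% fell in control and 19.9% rose and 29.1% fell in knockout oocytes. Of 14 receptors of the TGF-beta family 10 were tested, and 7 rose and 1 fell between stages in control oocytes, with a median log2 difference of 1.47 against -0.2 for all genes; in knockout oocytes 6 rose and 0 fell, with a median of 1.25 against -0.33. Bmpr2, the type 2 receptor that binds BMP15 and GDF9, went from 17.5 ± 4.56 to 110 ± 43.5 CPM (SD, n = 2) in control oocytes and from 31.2 ± 13.4 to 166 ± 37 CPM in knockout oocytes (log2 2.66 ± 0.42 and 2.41 ± 0.41 SE, edgeR adjusted p = 0.000565 and 0.000904). Bmpr1b, a type 1 receptor, rose from 97.8 ± 0.249 to 234 ± 10.9 CPM in control oocytes (log2 1.26 ± 0.24, edgeR adjusted p = 0.00177). It also rose in knockout oocytes (log2 1.28). The betaglycan gene Tgfbr3 rose by 1.66 ± 0.29 and 1.98 ± 0.29, and the activin receptor gene Acvr2b rose by 1.71 in control and 2.42 ± 0.44 in knockout oocytes. Amhr2, a granulosa cell marker, was at 3.21 ± 1.17 CPM in control GV and 0.0385 ± 0.0544 CPM in control MII, and passed as lower.

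Of 8 SMAD genes 6 were tested, and the same 3, Smad1, Smad3 and Smad4, rose in both genotypes, with 0 falling and list medians of 1.12 and 1.18. Smad1, of the BMP branch, rose by 2.55 ± 0.37 in control and 2.88 ± 0.38 in knockout oocytes. Smad3, of the activin and GDF9 branch and the most abundant of these, rose from 220 ± 57.9 to 518 ± 24.2 CPM in control oocytes. Among 10 tested antagonists and SMAD inhibitors, 3 rose and 3 fell in control oocytes (median 0.83) and 0 rose and 1 fell in knockout oocytes (median -1.11, or -0.54 with genes at 0 reads in a group set at their bound). Smurf2, which encodes a ubiquitin ligase of SMADs and receptors, rose by 1.26 ± 0.27 in control oocytes, and the SMAD corepressor gene Ski fell by 1.57 ± 0.27 and fell by 2.29 ± 0.28. Follistatin, encoded by the granulosa marker Fst, was at 1.29 ± 0.342 CPM in control GV, 19.6 ± 12.6 CPM in control MII and 1.31 ± 1.69 CPM in knockout MII. Low genes also passed in control oocytes, among them Skil at 0 reads at GV and 0.762 ± 0.0439 CPM at MII (at least 5.75-fold higher, against 3 counts per library) and Bambi at 3.96 ± 1.4 and 0.132 ± 0.187 CPM.

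Of 7 proprotein convertase genes 4 were tested. In control oocytes 3 rose (Furin, Pcsk5 and Pcsk7) and 1 fell (Pcsk6), and in knockout oocytes 0 passed in either direction, with medians of 1.62 and 0.78. Furin, which cuts many growth factor precursors, was at 249 ± 12.9 and 643 ± 164 CPM in control GV and MII (log2 1.37 ± 0.34, edgeR adjusted p = 0.00778) and at 237 ± 4.57 and 345 ± 153 CPM in knockout oocytes. No convertase passed in the test of the knockout effect between stages. Of the other 30 ligands of the TGF-beta family 12 were tested, with 1 rising and 4 falling in control and 1 rising and 3 falling in knockout oocytes (medians -1.3 and -1.16). Tgfb2 rose by 0.99 ± 0.3 and 1.26 ± 0.31, and Tgfb3 fell by 1.13 ± 0.32 in control oocytes. Amh, a granulosa cell product, was at 4.18 ± 1.32 CPM in control GV and 0.0165 ± 0.0234 CPM in control MII. Inhbc was at 0 reads in all MII libraries, at least 5.53-fold and 4.83-fold lower than at GV, and Inhba, at 0 reads in knockout MII, was at least 7.76-fold lower there than in knockout GV.

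Of the other 21 FGF ligands 5 were tested. Fgf9 rose in both genotypes, the opposite direction to Fgf8, from 16.3 ± 5.43 to 62.4 ± 1.71 CPM in control and from 8.61 ± 0.797 to 47.8 ± 1.8 CPM in knockout oocytes (log2 1.94 ± 0.33 and 2.47 ± 0.34, edgeR adjusted p = 0.00097 and 0.000252). Fgf7, known as a product of stromal cells, was at 6.24 ± 2.9 CPM in control MII and at 0 reads in both knockout MII libraries, at least 61.6-fold lower. It was the 1 call of this list between genotypes at MII, where 5.14% of all genes passed. The list medians were 1.78 and 0.72. Of 16 FGF receptors and feedback genes 11 were tested, with 4 rising and 3 falling in control and 3 rising and 2 falling in knockout oocytes (medians 0.9 and 0.41), in control with falls near the share of all genes. Fgfr2 rose by 1.42 ± 0.26 and 0.86 ± 0.25. The feedback inhibitor genes Spry1 and Spry4 fell, Spry4 from 696 ± 8.11 to 362 ± 13.3 CPM in control oocytes, while the related Spred1 rose by 2 ± 0.52 and 2.66 ± 0.53. Frs2, the adaptor of FGF receptors, rose by 2.19 ± 0.6 in control oocytes and Spred2 by 1.44 ± 0.46 in knockout oocytes, and Fgfrl1 was at 2.22 ± 1.96 and 0.0661 ± 0.0935 CPM in control oocytes.

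All 28 genes of KIT signalling were tested, with 13 rising and 5 falling between stages in control and 12 rising and 6 falling in knockout oocytes (medians 0.9 and 0.87). The rises were thus more frequent, and the falls less frequent, than the shares of all genes given above, a difference that was not tested. The kinase gene Pdpk1 rose from 36.3 ± 5.15 to 191 ± 23.1 CPM in control oocytes (log2 2.4 ± 0.29) and by 1.96 ± 0.28 in knockout oocytes. Rheb, the activator of mTOR complex 1, rose by 2.23 ± 0.28 and 1.77 ± 0.27, and Akt1 rose by 1.33 in control and 1.7 ± 0.25 in knockout oocytes. Tsc2, which encodes the inhibitor of Rheb, fell from 336 ± 32.5 to 6.26 ± 1.67 CPM in control and from 172 ± 75.9 to 12 ± 7.09 CPM in knockout oocytes. Between genotypes at MII 3 of the 28 were lower in the knockout, where 3.44% of all genes were. Some markers of other cells were also lower: 2 of 14 tested granulosa and cumulus markers, 1 of 3 tested blood and immune markers and the 1 tested mast cell marker. Of these markers 0 were higher. The granulosa and cumulus sums overlapped, at 454 and 521 CPM in control and 506 and 398 CPM in knockout MII. The blood and immune sums were 6.08 and 16.1 against 3.79 and 3.74 CPM. The part of other cells in the result was not tested. The ribosomal protein gene Rps6, a target of the pathway whose count is uncertain because it has processed pseudogenes, was at 18.3 ± 7.31 and 3.32 ± 1.07 CPM (log2 -2.45 ± 0.41, edgeR adjusted p = 0.0106), and the phosphatase gene Ptpn6 at 5.23 ± 0.712 and 0.717 ± 0.214 CPM (log2 -2.87 ± 0.5, edgeR adjusted p = 0.0122). Pik3r2, a regulatory subunit of phosphatidylinositol 3-kinase, was at 1.34 ± 0.912 CPM in control MII and 0.0149 ± 0.0211 CPM in knockout MII. Kit itself did not pass in any comparison of stage or genotype.

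All 8 oocyte transcription factor genes were tested, and 2 rose and 3 fell in each genotype (medians -1.05 and 0.52), near the shares of all genes. Nobox, whose word stands in the Bmp15 promoter, fell from 949 ± 276 to 32.2 ± 7.08 CPM in control and from 1090 ± 133 to 53.3 ± 9.64 CPM in knockout oocytes, and Figla and Lhx8 fell with it. Figla, the E-box factor, was at 33.2 ± 4.51 and 30 ± 5.35 CPM in control and knockout GV, and at 0.632 ± 0.52 and 0.0636 ± 0.0365 CPM at MII. There it was the 1 gene of the list to pass between genotypes (edgeR adjusted p = 0.0482), where 5.14% of all genes did. In the knockout MII libraries 3 reads were worth 0.0901 and 0.104 CPM, above the mean of Figla in that group. Sohlh2 rose by 2 ± 0.39 and 1.29 ± 0.39, Taf4b rose by 1.69 ± 0.51 in control oocytes and Nr6a1 by 1.52 ± 0.27 in knockout oocytes. Bmp15, Gdf9 and Oosp1 stood at 581, 4704 and 5491 CPM per kilobase in control MII oocytes, in which Nobox and Figla were low.

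**Figure D4:**
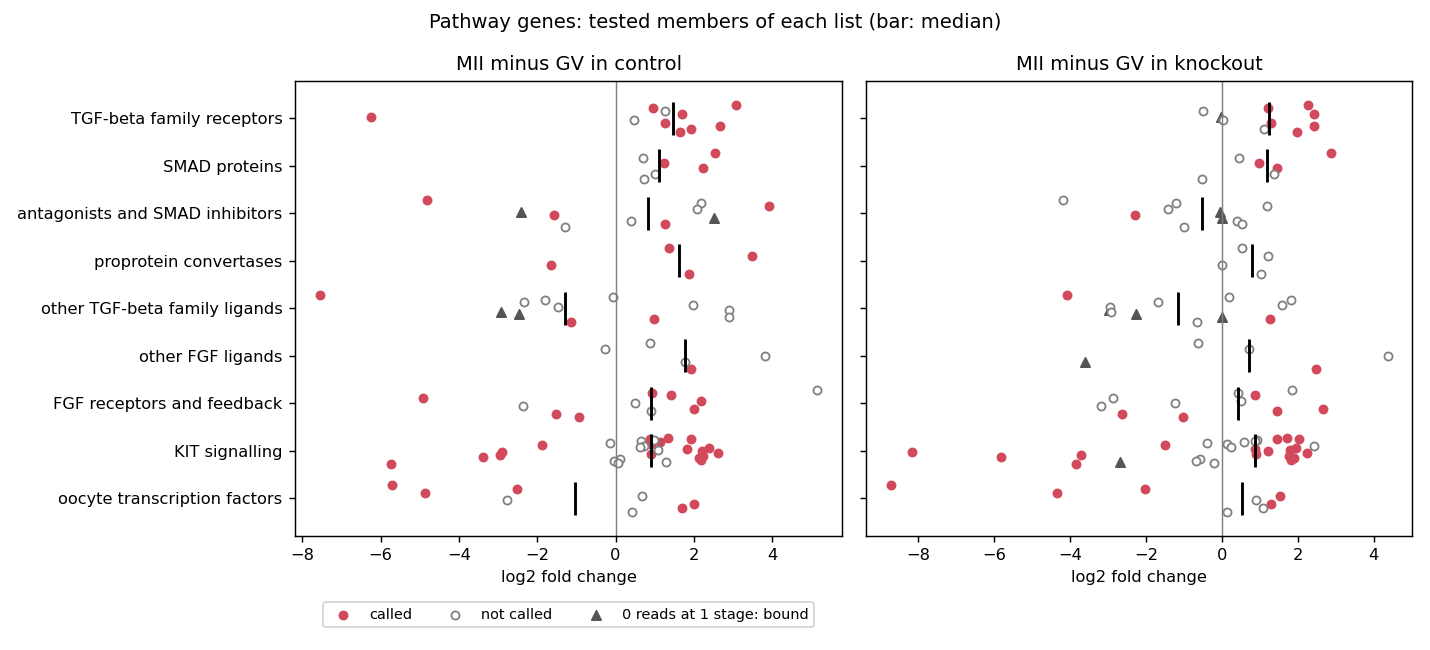
Log2 fold changes between MII and GV (horizontal axes) of the tested genes of 9 pathway lists (vertical axis), in control oocytes on the left and knockout oocytes on the right; red points passed the test, open points did not, triangles are bounds for genes at 0 reads at a stage, and black bars are list medians. The receptor and SMAD medians lie between 1.12 and 1.47 in both genotypes.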

How the data were processed

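Counts of reads per gene, which the authors deposited as 1 table, were used as they stood: whole numbers whose totals differ between columns, so not normalized. The submitters' processing notes name the build mm10 and the tools Bowtie2, HTSeq and edgeR. Their versions, the annotation, the strand setting and the kit are not given in these sources. The 5 HTSeq entries that name no gene held 22% to 35.13% of reads and were left out. Per the file headers, 2 columns share the name of the second control MII library. They entered as a and b of that group, with no order meant. No value column was left unused (0). Replicate columns differed by a chi-square per degree of freedom of 48.53 to 105.71, more than counting noise, so none was counted as a duplicate. Separate animals are not stated for replicates, so p-values measure the spread between libraries, which may be technical.

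Symbols and exons came from GENCODE M21, which placed 54809 of 54838 identifiers. In R 4.3.3, edgeR 4.0.16 filtered genes (filterByExpr, 15572 kept), scaled by TMM and fitted 1 term per group over all 8 libraries (4 residual and 6.3 prior degrees of freedom, common biological coefficient of variation 0.507). Contrasts were tested with the two-sided quasi-likelihood F-test, adjusted over all tested genes, and passed at 0.05. The standard error is the log2 fold change divided by the square root of F. The fit was also run on counts simulated gene by gene from its own dispersion estimates, so effects shared by the genes of a library were not checked. Where a group had 0 reads, folds are bounds against 3 counts per library, which cover counting error only. Alternatives were other scalings, filters, libraries left out, a replicate block and DESeq2 1.42.0. The 8 genes, the lists and the rule for named genes were chosen with earlier results of these data known. The rule took from each list and comparison up to 3 genes per direction with the smallest adjusted p, and for each of the 8 genes the 2 most alike; some genes it names are not reported here. Figures were drawn with matplotlib 3.10.9.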

Additional observations from a re-analysis of the deposited data

How the results depend on the processing

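Of 568 alternative values of single genes, 531 kept their direction and side of the threshold, 8 newly passed, 10 no longer passed and 19 changed direction. The stage differences of Fgf8 and Oosp3 passed in both genotypes under every alternative run: -5.45 to -4.32 and -6.74 to -5.56 for Fgf8 in control and knockout oocytes, 2.29 to 3.28 and 1.75 to 2.24 for Oosp3. Kit between genotypes at MII was 0.02 with DESeq2's size factors and with no filter and 0.01 in DESeq2. The difference of the knockout effect was 0.02 for Bmp15 and 0.16 for Oosp2 with library totals as the only scaling. With a library left out, the ranges that crossed 0 were -0.19 to 0.07 for Gdf9 and -0.34 to 0.35 for Kit between genotypes at MII, -0.92 to 0.3 for Bmp6 between stages in control oocytes, -0.49 to 0.19 for Kit between stages in knockout oocytes, and, for the difference of the knockout effect, -0.45 to 0.25 for Bmp15, -0.73 to 0.27 for Oosp1 and -0.41 to 0.24 for Oosp2. The cause of these changes was not tested.

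The number of genes of the whole table that passed between genotypes at GV, 154, was 527 with no filter, 702 with only the 2 groups compared and 520 in DESeq2, and 29 to 187 with a library left out. At MII, 800 became 1829, 392 and 1893 under the same alternatives, and 440 to 771 with a library left out. For the difference between stages, 13 became 1 with DESeq2's size factors, 2 with library totals, 498 with no filter, 41 with a mean of at least 5 CPM and 366 in DESeq2, and 0 to 23 with a library left out. Between stages 7649 genes passed in control oocytes, and 5075 to 7974 with a library left out. Of the 8 genes, 4 passed between stages in control oocytes and 5 in knockout oocytes, and 2 to 5 and 3 to 6 with a library left out. Where leaving out a library left 1 in a group, that library was assumed to vary like the others.

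With the replicate number as a block, 1522 genes passed between genotypes at GV, among them 2 of the 8: Bmp6 (1.14, edgeR adjusted p = 0.0095) and Oosp3 (1, 0.0251). Between stages in knockout oocytes 6294 passed with the block, and of the 8 genes 4, with Gdf9 lost (-1.08, 0.222). The numbers are shared labels with no stated pairing: deviations from group means correlated at 0.119 between same-numbered GV libraries, and at -0.02 and 0.013 with knockout MII. No block could be fitted for comparisons with control MII, whose columns carry 1 number between them. With 2 libraries a group precision was limited: the 95% interval of the knockout effect at GV reached above 1 (log2) for all 8 genes.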
